A study of Arabidopsis thaliana with 8 samples.

Results

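The PEX11 genes PEX11A (AT1G47750), PEX11C (AT1G01820), PEX11D (AT2G45740) and PEX11E (AT3G61070) of Arabidopsis thaliana were followed through lists of N6-methyladenosine (m6A) peaks from leaf messenger RNA. They are 4 of 27529 annotated protein-coding genes, and their exons held 9 of the 19583 peaks in the 4 lists. The genes were taken by locus identifier, and they were chosen from the measured peaks: PEX11D ranked high in both wild-type lists and had no peak in either mta list. Those values are therefore given as a description with no test, and the same holds for the presence or absence of a peak at the other members.

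The assay was miCLIP-seq, in which an antibody to m6A is crosslinked to poly(A)+ RNA with ultraviolet light and the bound RNA is sequenced. The plants were ABI3:MTA, called mta here, and wild type (WT), both in the Col-0 ecotype. MTA is a catalytic subunit of the m6A writer complex. In mta it is expressed from the promoter of ABI3, a gene active in embryos, which limits the plants as a model: how much MTA was left in these leaves was not measured here, nor was the total amount of m6A. Soil-grown plants of both genotypes were kept at 22 °C under days of 16 h light and nights of 8 h. Their leaves 5 to 9 were harvested at an age of 4 weeks, 4 h after lights came on. Each replicate started from 7 µg of poly(A)+ RNA. There were 2 bound libraries of mta and 2 of WT, and the labels do not say whether replicates came from separate plants. The unbound supernatant libraries, which bring the number described in the labels to 8, were not analysed here.

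PEX11 proteins sit in the peroxisome membrane, where they elongate the organelle and start its division. Dynamin-related GTPases of the DRP3 group and the membrane anchor FIS1 then carry out the fission step. In green leaves peroxisomes work beside chloroplasts and mitochondria in photorespiration, and in all tissues they break down fatty acids and hormone precursors by beta-oxidation.

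The sequences below hold candidate m6A motifs inside PEX11 peaks to which the results refer. A further AAACA site of PEX11C, in the WT replicate 1 peak alone, is not printed. The motif RRACH (R is A or G and H is A, C or T in DNA letters) is the textbook m6A consensus. It was searched on the strand of the gene only. Capitals mark the motif, the other letters are the bases beside it, and the sequences are RefSeq reference sequence of the TAIR10.1 assembly, written 5′ to 3′ on the strand of the gene.
PEX11D, 3′ UTR, chr2:18841183-18841203, plus strand, in both WT peaks: ctgttataAAACAtcgtataa
PEX11C, 3′ UTR, chr1:296050-296070, minus strand, in both WT peaks: ataatgatAAACAttgcagtc
PEX11C, 3′ UTR, chr1:296022-296042, minus strand, in the mta replicate 1 peak and both WT peaks: aataataaGAACAgataagca
PEX11C, 3′ UTR, chr1:296178-296198, minus strand, in the mta replicate 2 and WT replicate 1 peaks: ggaaaggcGAACTagtttcat
PEX11A, end of the coding sequence, chr1:17569394-17569414, minus strand, in the mta replicate 2 peak: actcataaGAACTggatctct

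The genes themselves differ in structure, which bears on where a peak can fall. PEX11D spans chr2:18839435-18841403 on the plus strand and encodes 236 residues. PEX11E (chr3:22604094-22606878, minus strand) encodes 231 residues and PEX11C (chr1:296001-298334, minus strand) 235. PEX11A (chr1:17569256-17570249, minus strand) encodes 248 residues. Their 3′ UTRs measured 779 nt in PEX11E, 301 nt in PEX11D, 212 nt in PEX11C and 132 nt in PEX11A. Over 23318 protein-coding genes with a 3′ UTR the median was 247 nt and the quartiles were 179 and 332 nt, so the 3′ UTR of PEX11A is short. That of PEX11E is long in the representative transcript, and at 271 nt in its other 2 annotated transcripts it lies between the quartiles. All these coordinates and lengths are those of TAIR10.1.

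The lists differed widely in length, and that sets what an absent peak can show. They held 1934 peaks in mta replicate 1 and 2092 in mta replicate 2, against 8973 in WT replicate 1 and 6584 in WT replicate 2. The median peak was 56 and 54 bp wide in mta, against 88 and 83 bp in WT. Read depth is unknown, because the lists hold no counts, and the number of peaks is the one measure of yield they give. A gene without a peak is a gene in which no region was called, and a change in its RNA level cannot be told apart from a change in its methylation. In whole leaves, fewer cells of a type and less RNA per cell cannot be told apart either. Each peak carries the score the authors' caller gave it, a whole number with no stated unit. Scores were compared only within a list, as a percentile of all its peaks, where 100 is the highest, and percentiles are what is set side by side between lists.

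Of these 4 genes, 1 had a peak in mta replicate 1 and 2 had one in mta replicate 2, against 3 in each WT list. Over all protein-coding genes the share with a peak was 5.6% in mta replicate 1 and 5.99% in mta replicate 2, against 27.0% in WT replicate 1 and 20.3% in WT replicate 2. PEX11C, PEX11D and PEX11E had a peak in both WT lists, which 18.9% of all genes had. Among those 3 genes, PEX11D and PEX11E had no mta peak, and of all genes with a peak in both WT lists 74.1% had none. An absent mta peak, as at PEX11D, was thus the more frequent outcome among genes with peaks in both WT lists. PEX11C had a peak in all 4 lists, as had 10.2% of the 5194 genes with a peak in both WT lists. PEX11A had an mta peak and no WT peak, which held for 2.37% of all protein-coding genes.

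**Figure D1:**
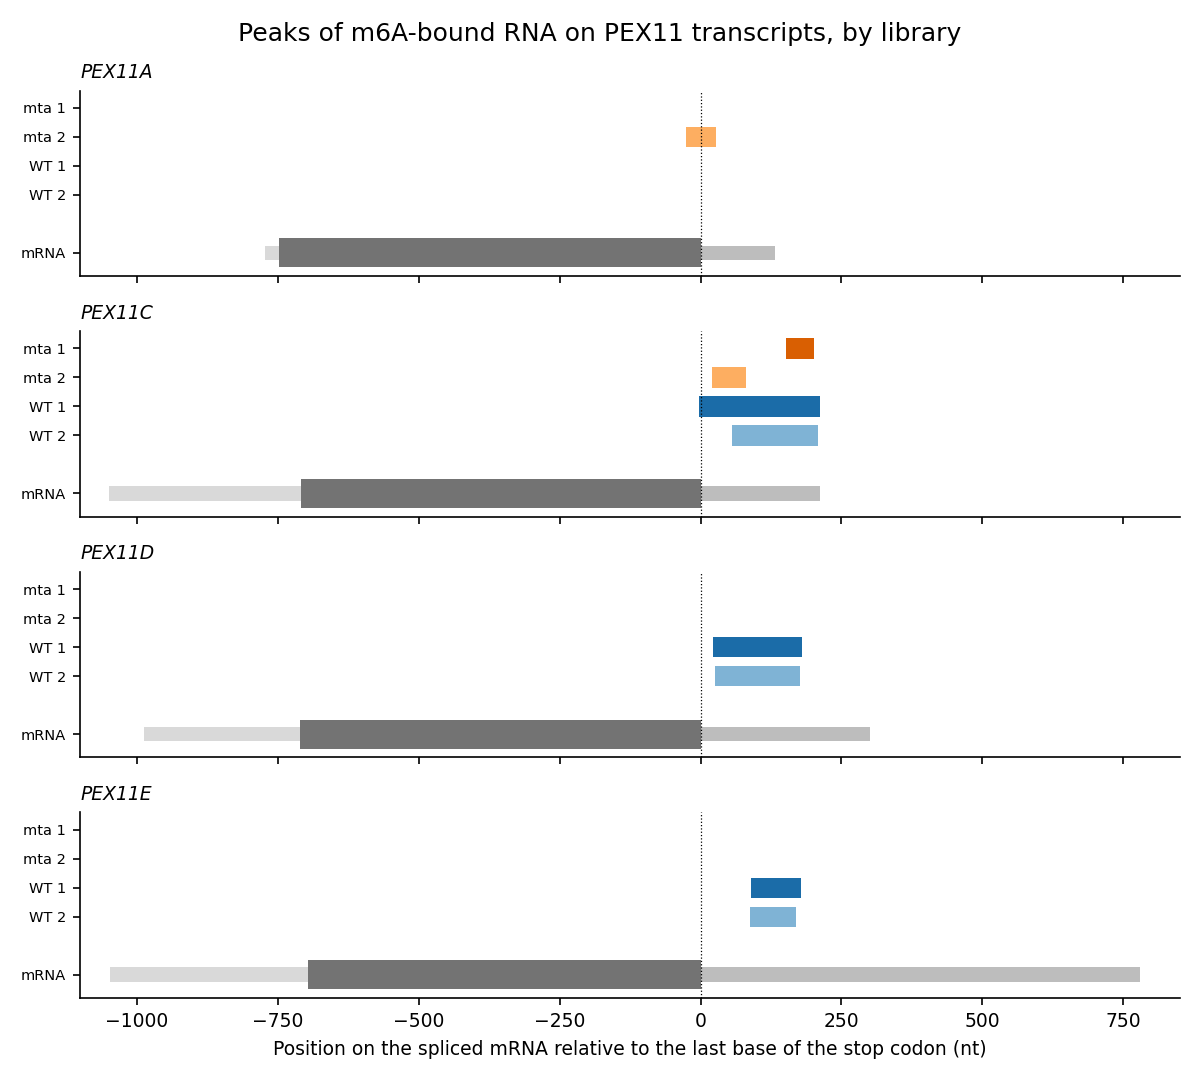
Positions of the 9 PEX11 peaks along each spliced transcript, in nucleotides from the last base of the stop codon (0), with the coding sequence and UTRs drawn to scale and 1 row per library, mta above WT. PEX11C has mta peaks that are narrower than its WT peaks and lie inside or partly inside them. PEX11D and PEX11E have no mta row filled, and PEX11A has an mta replicate 2 peak on the stop codon alone.

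PEX11D had no peak in either mta list. It had 1 peak in each WT list, with a score of 132 in WT replicate 1 and 58 in WT replicate 2. These stood at percentile 97.0 and 99.6 of their lists, and at 97.2 and 99.2 among peaks of the plus strand, on which the gene lies. The score of 58 was the highest in WT replicate 2 and was shared by 54 peaks, so the order within that tie is not known. Among the 52 genes with peaks in both WT lists whose best peak in WT replicate 2 also scored 58, 50.0% had no mta peak.

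The PEX11D peaks were almost the same interval in both WT libraries. They covered chr2:18841125-18841282 in WT replicate 1 and chr2:18841129-18841279 in WT replicate 2, shared 151 bp, and had the same midpoint. The shared bases were 95.6% of the WT replicate 1 peak and all of the WT replicate 2 peak. Both midpoints lay 102 nt past the stop codon in a 3′ UTR of 301 nt, which all 3 annotated transcripts share. That is close to the middle of the range for WT 3′ UTR peaks, at percentile 39.0 and 38.8 of their distances. At 158 and 151 bp the peaks were wider than most, at width percentile 85.8 and 88.0. The single RRACH motif in the shared interval began 89 nt past the stop codon.

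PEX11E, the member whose protein is most like PEX11D, also had no peak in either mta list. Its WT peaks scored 49 in WT replicate 1 and 28 in WT replicate 2, at percentile 47.3 and 39.4, which is near the middle of both lists and far from the PEX11D peaks. The intervals were chr3:22604695-22604782 in WT replicate 1 and chr3:22604704-22604785 in WT replicate 2. They shared 79 bp, which is 89.8% of the WT replicate 1 peak and 96.3% of the WT replicate 2 peak. The midpoints lay 134 and 128 nt past the stop codon. The representative transcript of PEX11E has a 3′ UTR of 779 nt, and the other 2 annotated transcripts have one of 271 nt, still longer than both distances. No RRACH motif lay in the shared interval, and the letters URUAY were not found there either.

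PEX11C had 1 peak in each of the 4 lists, all with the midpoint in its 3′ UTR. The score was 18 in mta replicate 1 and 48 in mta replicate 2, at percentile 9.64 and 41.7. In WT replicate 1 it was 134, at percentile 97.5, and in WT replicate 2 it was 43, at percentile 86.9. The peak thus stood high in both WT lists, as at PEX11D, and below the middle of both mta lists.

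The mta peaks of PEX11C were narrower than its WT peaks and did not overlap each other. Within their own lists their widths stood at percentile 6.41 in mta replicate 1 and 70.2 in mta replicate 2. The mta replicate 1 peak covered chr1:296011-296060, 50 bp with its midpoint 177 nt past the stop codon, and the mta replicate 2 peak covered chr1:296133-296191, 59 bp with its midpoint at 51 nt. A gap of 72 bp separated them. The WT peaks were 218 bp wide in WT replicate 1 (chr1:295997-296214) and 152 bp wide in WT replicate 2 (chr1:296005-296156), with midpoints at 107 and 132 nt. Their widths stood at percentile 97.3 and 88.4 of their lists. The WT replicate 1 peak ran from within the stop codon past the annotated transcript end and so covered the whole 3′ UTR of 212 nt. Any peak within that UTR would lie inside it, as both mta peaks did. The WT replicate 2 peak took in the mta replicate 1 peak whole and 40.7% of the mta replicate 2 peak. Non-overlapping mta peaks were uncommon: of the 532 genes with a peak in all 4 lists, 4.89% had no overlap between the mta lists. An overlap between an mta peak and a WT peak, as at PEX11C, was the more frequent outcome, since 22.7% of the 532 genes had none. The mta replicate 1 peak held the GAACA site at the far end of the UTR, and the mta replicate 2 peak held the GAACT site nearer the stop codon, so the mta lists shared no RRACH site at PEX11C.

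**Figure D2:**
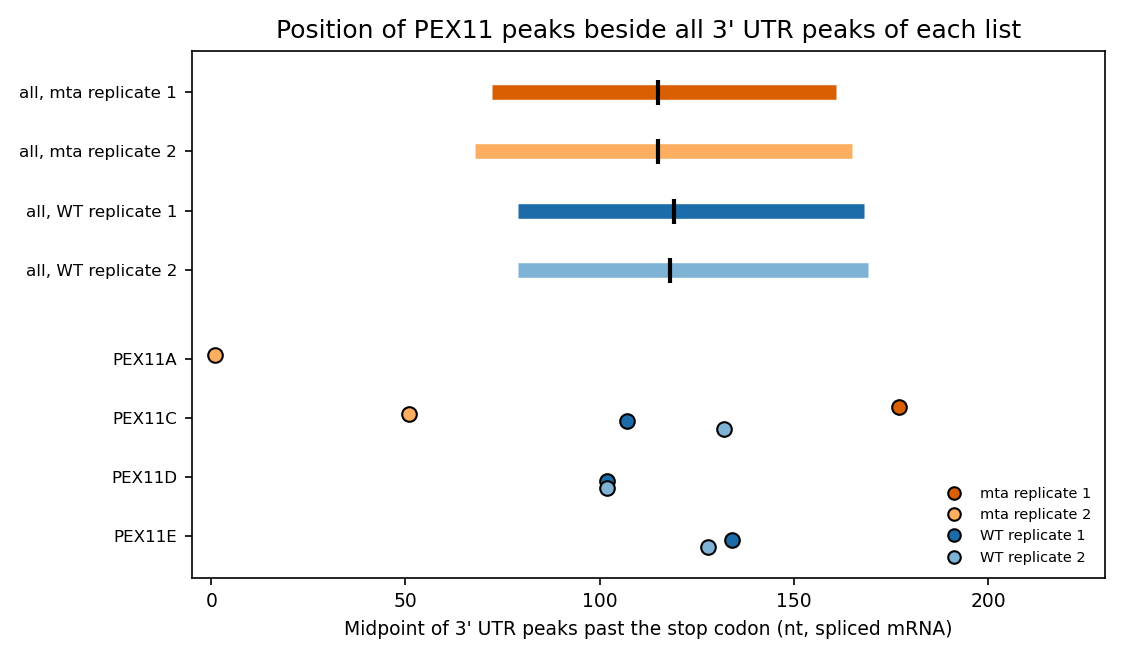
Midpoints of the PEX11 peaks in 3′ UTRs, in nucleotides past the stop codon, below the quartile range (bar) and median (tick) of all 3′ UTR peaks of each list, mta above WT. PEX11D has the same position, 102 nt, in both WT lists, whereas PEX11C spreads over 51 and 177 nt in mta and over 107 and 132 nt in WT.

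PEX11A, which has no intron, had a single peak, in mta replicate 2. The score was 45, at percentile 30.4 of that list. The peak covered chr1:17569361-17569412, 52 bp, and straddled the stop codon, with its midpoint 1 nt past it. Peaks that touched the stop codon made up 11.7% and 9.58% of placed peaks in mta, against 17.3% and 15.1% in WT. PEX11A had no peak in mta replicate 1 or in either WT list, so its mta peak was seen in 1 of 2 replicates. On the opposite strand, WT replicate 1 had a peak over chr1:17569225-17569291 that was assigned to AT1G47740, a gene whose end overlaps that of PEX11A, and 36 of its bases lay inside the PEX11A locus. PEX11E likewise had an opposite-strand WT replicate 1 peak, chr3:22604486-22604543, assigned to PP2-A13 (AT3G61060). Both were left out of the 9, because the libraries were strand-specific per the labels.

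**Figure D3:**
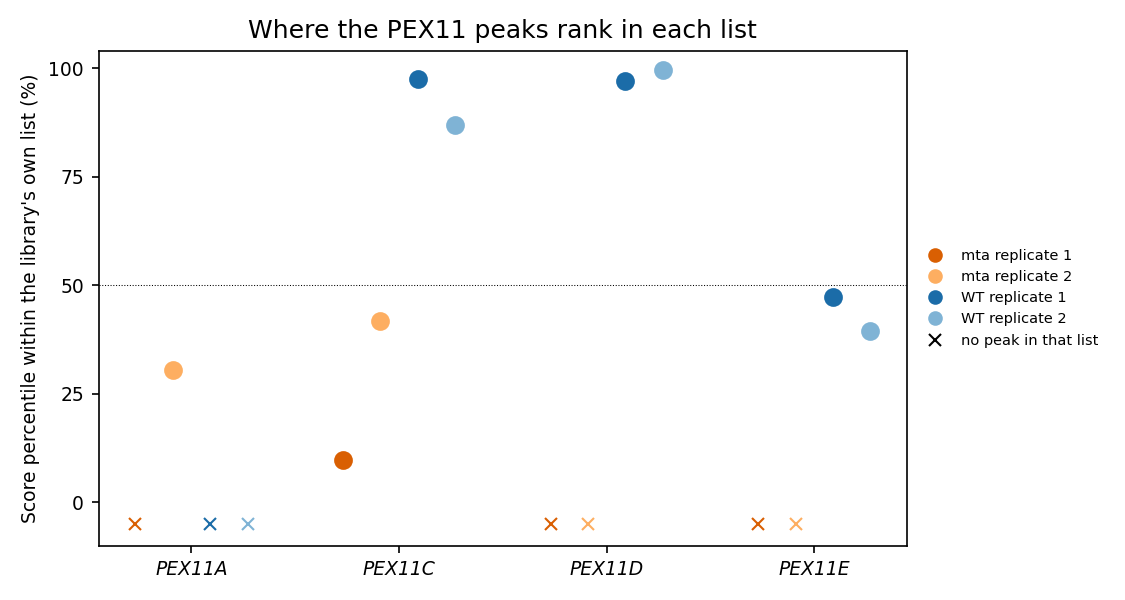
Percentile of the score of each PEX11 peak within its own list, for mta replicates 1 and 2 and then WT replicates 1 and 2, with crosses where a list has no peak of the gene. The highest mta value, PEX11C in replicate 2, is 41.7, whereas in WT PEX11D lies at 97.0 and 99.6 and PEX11C at 97.5 and 86.9.

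Set side by side, the 3 mta peaks had percentiles from 9.64 to 41.7, and the 6 WT peaks had percentiles from 39.4 to 99.6. PEX11E was the lowest of the 3 genes in both WT lists. By score, PEX11C led in WT replicate 1, at 134 against 132 for PEX11D, and PEX11D led in WT replicate 2. These genes lie on opposite strands, and the highest score in WT replicate 2 was 58 on the plus strand and 50 on the minus strand. Within its own strand PEX11C stood at percentile 97.16 in WT replicate 1 and 88.4 in WT replicate 2, and PEX11D at 97.19 and 99.2. The mean WT percentile was 98.3 ± 1.80 for PEX11D, 92.2 ± 7.54 for PEX11C and 43.4 ± 5.56 for PEX11E (SD, n = 2 lists each). PEX11D was chosen for its high WT rank, so its high place here follows from that choice. With 2 lists each, these SDs give only the gap between the lists, and the differences between genes were not tested.

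The proteins of PEX11C, PEX11D and PEX11E form one close group. PEX11D and PEX11E were identical at 84.3% of aligned residues, PEX11C and PEX11D at 81.8%, and PEX11C and PEX11E at 80.0%. PEX11A was 22.6% to 23.8% identical to these 3 proteins. The gene structures followed the same split, with 8 exons in the representative transcripts of PEX11C, PEX11D and PEX11E and 1 in that of PEX11A. The presence of mta peaks did not follow it, since PEX11C was in both mta lists and PEX11D and PEX11E were in neither.

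Reads of near-identical copies can be placed on the wrong gene, so the members were compared base by base. The longest run of bases shared by any pair of these transcripts was 23 nt, between PEX11C and PEX11E. No 20-base word of the WT interval of PEX11C or PEX11D occurred elsewhere in the reference genome. In the PEX11E interval 2 of 60 such words did, and in the PEX11A peak 2 of 33.

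RRACH lay within 50 nt of both WT midpoints at PEX11C and PEX11D, 2 of the 3 genes with WT peaks. In the whole lists, 71.1% and 72.5% of mta peaks and 77.0% and 77.4% of WT peaks had the motif in the same window. Within 25 nt of both midpoints PEX11D alone had it, in a window where 55.7% and 57.0% of WT peaks had it. With T also allowed as the first base, PEX11C had it within 25 nt too, as had 69.0% and 69.3% of WT peaks. Within 100 nt PEX11E had RRACH as well, as had 92.3% and 92.2% of WT peaks. URUAY (Y is C or T), a motif tied to m6A readers of the YTH family in plants, lay within 50 nt of both WT midpoints at PEX11C. In the whole lists it was found near 44.7% and 40.2% of mta peaks and 56.9% of WT peaks in both replicates. The URUAY match shared by both PEX11C WT peaks began 135 nt past the stop codon. Their shared AAACA site began farther on, at 151 nt. The WT replicate 1 peak also held an AAACA site at 9 nt and a URUAY match at 51 nt, and the mta replicate 2 peak held that URUAY match too. These matches are letters in a window, and which adenosine was methylated was not measured here.

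The other genes of the peroxisome gave a base against which to read the PEX11 genes. Of 61 such genes, 10 had a peak in mta replicate 1 and 8 in mta replicate 2, against 40 in WT replicate 1 and 32 in WT replicate 2. A peak in both WT lists was found in 32 of them, 52.5%, and 22 of these, 68.8%, had no mta peak. Over all protein-coding genes, 5.6% and 5.99% had a peak in the mta lists, against 27.0% and 20.3% in the WT lists. Their share with a peak in both WT lists was 18.9%, and 74.1% of those had no mta peak. Both shares for the PEX11 genes, 3 of 4 and 2 of 3, rest on too few genes to be set apart from these. PEX11D also counts in both because the family was chosen for its peaks.

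**Figure D4:**
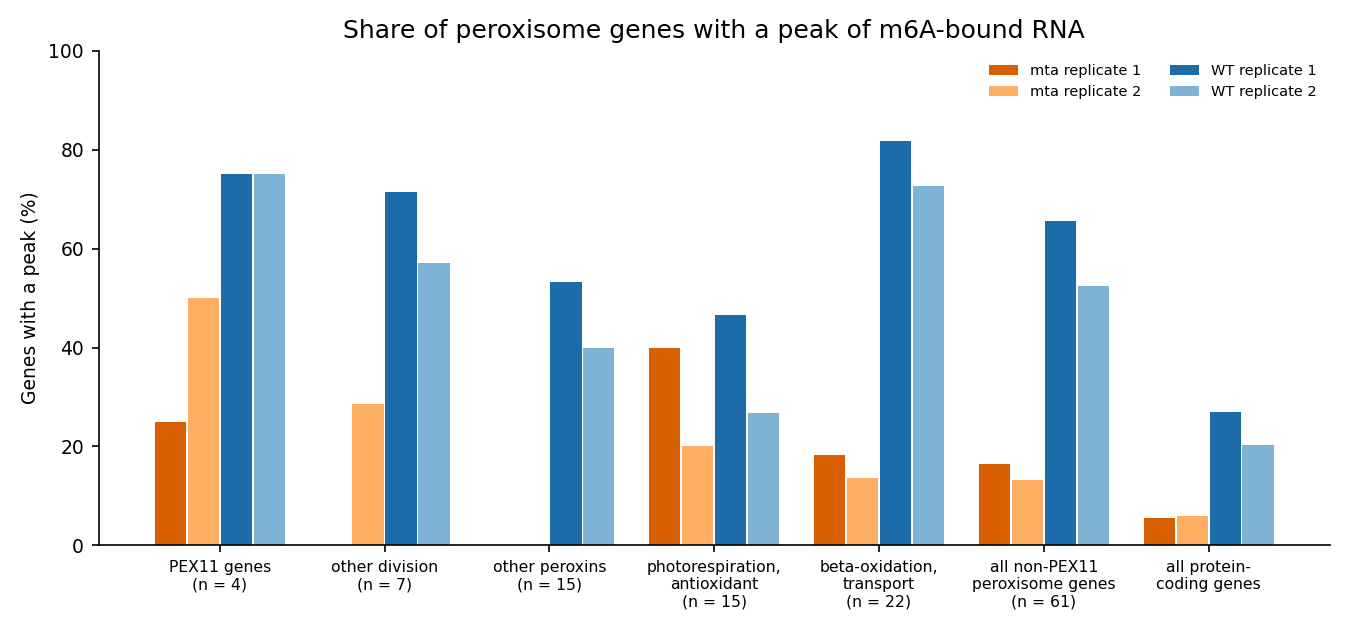
Percentage of genes with a peak in each library, mta left of WT, for the PEX11 genes, 4 lists of other peroxisome genes, all 61 of the other peroxisome genes and all protein-coding genes. The other peroxins had no peak in either mta list and 8 and 6 genes with a peak in the WT lists.

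The list of other peroxisome division genes held 7 genes. Of these, 0 had a peak in mta replicate 1 and 2 in mta replicate 2, against 5 and 4 in WT. Over all protein-coding genes the shares were 5.6% and 5.99% in mta, against 27.0% and 20.3% in WT. DRP3A, a dynamin-related GTPase of peroxisome and mitochondrial fission, had an mta replicate 2 peak in the coding sequence, at percentile 80.3. Its best WT peaks stood at percentile 68.1 in WT replicate 1 and 94.6 in WT replicate 2 and lay in the 3′ UTR. The mta peak overlapped no WT peak, unlike those of PEX11C. DRP3B, its close relative, had 2 mta replicate 2 peaks, of which one overlapped WT peaks. FIS1A and FIS1B, which anchor the fission machinery, had no mta peak. FIS1A stood at percentile 74.2 in WT replicate 1 and 80.1 in WT replicate 2, and FIS1B at 42.7 and 53.9.

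The peroxins that import matrix and membrane proteins numbered 15. None of them had a peak in either mta list, where 5.6% and 5.99% of all protein-coding genes had one. In WT replicate 1, 8 of these peroxins had a peak, and in WT replicate 2, 6 had one, beside 27.0% and 20.3% of all protein-coding genes. All 6 genes with a peak in both WT lists therefore had no mta peak, beside the background of 74.1%. PEX4, the ubiquitin-conjugating enzyme that recycles the import receptor, came closest to PEX11D, at percentile 95.8 in WT replicate 1 and 99.6 in WT replicate 2. PEX22, its membrane anchor, stood at 64.7 and 74.3 in the same lists. APEM9, the membrane tether of the ATPases that pull the receptor out, stood at 87.7 and 94.6, and PEX14, a docking protein for the receptor, at 72.6 and 48.4.

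Several enzymes inside the peroxisome had mta peaks. A list of 15 enzymes covered photorespiration and antioxidant defence, and it also held urate oxidase (UOX) and sulfite oxidase (SOX). Of these 15, 6 had a peak in mta replicate 1 and 3 in mta replicate 2, against 7 and 4 in WT. UOX and SOX were both among the 6, and UOX was among the 3. Of 22 genes of beta-oxidation and peroxisome transport, the counts were 4 and 3 in mta, against 18 and 16 in WT. Over all protein-coding genes the shares with a peak were 5.6% and 5.99% in mta, against 27.0% and 20.3% in WT. UOX, urate oxidase, had coding-sequence peaks at percentile 77.8 and 95.5 in mta, against 3′ UTR peaks at 61.3 and 80.1 in WT. MFP2, a multifunctional enzyme of beta-oxidation, had 3′ UTR peaks in all 4 lists, at percentile 36.3 and 45.8 in mta, against 68.1 and 80.1 in WT. KAT1, a thiolase, had a coding-sequence peak at percentile 8.08 in mta replicate 2, against 3′ UTR peaks at 93.5 and 94.6 in WT. CAT2, the main leaf catalase, had an mta replicate 1 peak at percentile 36.3 and no WT peak, the pattern otherwise seen at PEX11A.

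Further genes named by rule had no mta peak. LACS7, a peroxisomal acyl-CoA synthetase, stood at percentile 93.5 in WT replicate 1 and 80.1 in WT replicate 2. CSY2, a peroxisomal citrate synthase, stood at 94.2 and 80.1, and PXA1, the transporter that brings fatty acids into the peroxisome, at 89.4 and 80.1. Of the proteases, DEG15, which trims targeting peptides, stood at 84.7 and 80.1. LON2, which degrades matrix proteins, stood at 5.04 and 62.8, low in WT replicate 1.

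Where a peroxisome gene had both WT peaks and an mta peak, the mta peak often lay elsewhere. Of 10 such genes outside PEX11, 6 had no mta peak that overlapped a WT peak, namely DRP3A, GGT2, UOX, SOX, ACX4 and KAT1. The 4 with an overlap were DRP3B, ACX3, MFP2 and ECH2. PEX11C had an overlap. Over all 1344 genes with peaks in both WT lists and any mta list, 35.8% had no overlap.

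The genes whose 4 percentiles were most like those of PEX11D, over the 4 lists, were AT2G01090, AT2G42910 and SAD1 (AT5G48870), each at a Euclidean distance of 0.479 percentile points, followed by AT3G15780 and PEX4 at 1.23. For PEX11E, 5 genes had the same percentiles in every list (TPST, BEL10, AT1G23230, AT1G25682 and ATCSA-1), more being tied. For PEX11C the nearest lay at 13.0 or more (AT4G24550, AT2G25310, AT4G22740, SEC6 and EMB3003), and none of these 5 had a peak in mta replicate 1. Of the annotated neighbours of PEX11D, AT2G45730 had a peak in mta replicate 2 and in both WT lists, and BAP2 had one in mta replicate 2 alone. AT2G09660 and AT2G45750 had none.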

How the data were processed

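The deposited peak lists of the 4 bound libraries, 2 per genotype, give an interval, a strand and a score per peak. Reads were aligned with STAR 2.4.0 to TAIR10 and peaks called with MACS2, per the submitters' processing notes; no source used here gives the control or threshold. The score is the authors' value, of unstated scale. Peaks were called separately per library and per strand. Each peak was given to the gene with a same-strand exon at its midpoint, where exactly 1 gene had one, using RefSeq TAIR10.1. This placed 97.4% of 19528 nuclear peaks, and 0 lay past a chromosome end of that assembly. Positions used the transcript with the longest coding sequence. Identity is over aligned columns of a global alignment (BLOSUM62, gap open -10, extension -0.5). Tools were Python 3.11.15, numpy 2.4.6, Biopython 1.88 and matplotlib 3.10.9. Placement was checked on simulated data.

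No test was run, because the genes were chosen on these peaks. The members and lists were chosen with earlier results of these data known. Genes named were the PEX11 genes, the 5 genes nearest each in percentiles (a list without a peak counting as 0), the 2 neighbours on each side of PEX11D, and, per list, members with an mta peak and up to 4 with the highest mean WT percentile. Some genes of the family and of the lists are not reported here and enter no count of PEX11 or peroxisome genes. Depth is known only through the length of each list.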

Additional observations from a re-analysis of the deposited data

How the results depend on the processing

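In the counts as reported, 3 PEX11 genes had peaks in both WT lists, 2 of them had no mta peak, 2 had an mta peak in any list, and 32 other peroxisome genes had peaks in both WT lists, 22 of them without an mta peak. With scores of at least 50 these were 1 (PEX11D), 1, 0, 4 and 3, where 80.1% of all 588 genes with peaks in both WT lists had no mta peak (74.1% as reported). With every list shortened to its 1934 highest peaks they were 2 (PEX11C and PEX11D), 1, 2, 10 and 8, and shortening by rank within strand, chosen after seeing the data, gave 2, 1, 2, 10 and 8, beside 70.4% and 70.0% of all such genes without an mta peak. With peaks of at least 75 bp, 0 PEX11 genes had an mta peak, so PEX11C joined those without one, which then made up 94.6% of all genes with peaks in both WT lists. Counting an mta peak only where it overlapped a WT peak, also chosen after seeing the data, left 1 (PEX11C), beside 83.4% of all such genes without one. RRACH within 25 nt of both WT midpoints was left at 1 gene instead of 2. The cause of these shifts was not tested. Leaving out each replicate in turn gave 3 PEX11 genes with WT peaks, 2 without an mta peak and 1 to 2 with an mta peak, the lower value without mta replicate 2, which held the PEX11A peak. The same gave 32 to 40 other peroxisome genes with WT peaks and 22 to 28 of these without an mta peak. The remaining values, 69 of 84, stayed within 1.5 times of the reported count or within the spread between replicates. The planned use of summits was not run, because the lists hold no summit. No paired analysis was possible because the results come from no test. Read depth is unknown, and shorter mta lists limit what an absent peak can show.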

Other observations

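Further members of the list that held enzymes of photorespiration and antioxidant defence, with UOX and SOX, also had mta peaks. HPR1, the hydroxypyruvate reductase of photorespiration, stood at percentile 44.6 of the mta replicate 1 list and 24.5 of the mta replicate 2 list, against 11.0 in WT replicate 1 and no peak in WT replicate 2, and its mta peaks overlapped the WT peak. MDAR1, a monodehydroascorbate reductase, had coding-sequence peaks at percentile 7.68 and 1.05 in mta, against a 3′ UTR peak at 0.619 in WT replicate 1 and none in WT replicate 2. GGT2, a glutamate-glyoxylate aminotransferase, stood at percentile 9.64 in mta replicate 1, in the coding sequence, against 73.0 and 86.9 in the WT lists. SOX, sulfite oxidase, stood at percentile 0.569 in mta replicate 1, in the coding sequence, against 57.1 and 5.50 in the 3′ UTR in the WT lists.

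Of the beta-oxidation genes, ACX3, an acyl-CoA oxidase, had its best mta peaks in the coding sequence, at percentile 32.9 in replicate 1 and 54.3 in replicate 2. Its best WT peaks lay elsewhere, in the 3′ UTR, at 74.2 and 62.8. ACX3 also had a coding-sequence peak in WT replicate 1, at 47.3, and a 3′ UTR peak in mta replicate 2, at 26.9. Its relative ACX4 stood at percentile 32.9 in mta replicate 1, in the coding sequence, against 66.7 and 1.79 in the 3′ UTR in the WT lists. ECH2, an enoyl-CoA hydratase, stood at percentile 77.8 in mta replicate 1, against 88.7 and 73.6 in the WT lists, in the 3′ UTR throughout. APX3, a membrane-bound ascorbate peroxidase, had no mta peak and stood at percentile 68.1 and 9.03 in the WT lists.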
